A study of Mus musculus with 2 samples.

Results

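A group of 9 genes for transcription factors that act as neural progenitors mature into neurons or glia was followed in the embryonic mouse brain, namely the nuclear factor I genes *Nfia*, *Nfib*, *Nfic* and *Nfix*, the zinc finger homeobox genes *Zeb1* and *Zeb2*, the zinc finger gene *Zbtb20*, and *Prdm16* and *Prdm8* of the PRDM family. They were picked by gene symbol as known factors of this class, by a rule that holds no measured value but was set with earlier results of these data known, and make up 9 of the 24411 genes listed. The samples were 2 areas of fresh frozen brain at embryonic day 16.5. They were the subventricular zone (SVZ), where progenitors divide near the lateral ventricle, and the cortex, where newborn neurons settle. Each area was cut from stained cryosections by laser capture microdissection (LCM), a laser cut under the microscope, and gave 1 bulk RNA-seq library, so that no difference between the areas has a replicate check. No strain, genetic change or treatment is named in the sources used here, and they do not say how many embryos gave the pieces. Gene-assigned reads numbered 51435667 for SVZ and 22050693 for cortex. Values are given as counts per 1000000 gene-assigned reads (CPM), and a ratio is SVZ over cortex on the log2 scale with the exact (Clopper-Pearson) 95% interval of the counts. These intervals cover counting error only and say nothing of how embryos or cut pieces vary. PCR copies were not told apart from separate molecules, and each read was taken as independent, so the intervals may be too narrow. In bulk tissue, fewer cells of a type and less RNA per cell cannot be told apart.

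NFI proteins bind DNA as dimers at a palindromic site, open chromatin in radial glia and are known both for the timing of neuronal differentiation and for the onset of astrocyte formation. ZEB proteins are repressors with a zinc finger cluster at either end, which bind E-boxes and are best known for silencing epithelial genes. In the cortex *Zeb1* is known from progenitors and *Zeb2* from postmitotic neurons, where it controls signals sent back to the progenitors. ZBTB20 is a repressor of the BTB zinc finger class known from radial glia, astrocytes and the hippocampus. PRDM16 is a chromatin regulator of radial glia, and PRDM8 is a corepressor that works with the bHLH factor BHLHE22 in postmitotic neurons.

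The pieces were first checked by marker genes. All 9 apical progenitor markers, the 5 of 6 intermediate progenitor markers that averaged 10 CPM or more and all 6 proliferation markers were at least 2-fold higher in SVZ, with median ratios of 3.74, 4.55 and 5.95. The proliferation markers, and some progenitor markers of both kinds, had under 10 CPM in cortex and met the minimum through the SVZ library. Of 8 neuron markers 6 were at least 2-fold higher in cortex, as were all 6 deep-layer neuron markers, with medians of -1.92 and -2.18. The median ratio was 0.10 over the 9027 genes that averaged 10 CPM or more. The SVZ library was thus rich in progenitor RNA of both kinds and the cortex library in neuronal RNA. The name SVZ is that of the labels, and whether the piece held bordering zones was not tested. RNA of other cell types also differed. The 7 microglial markers were each higher in SVZ, with sums of 54.7 and 5.99 CPM, and the 5 choroid plexus markers summed to 245 and 0.907 CPM, nearly all from *Ttr*. The 8 blood vessel markers summed to 145 and 111 CPM, with 5 of the 8 higher in SVZ, and the 6 meningeal markers to 4.59 and 9.39 CPM, with 4 of the 6 higher in cortex. Interneuron markers were divided, with 5 of 8 higher in SVZ but sums of 154 and 514 CPM, the latter mostly *Npy*. The 4 Cajal-Retzius markers summed to 3.73 and 30.8 CPM and the 7 erythroid markers to 20.4 and 10.9 CPM, with *Hba-a1*, *Hba-a2*, *Hbb-bs* and *Hbb-bt* at 0 reads in both and the embryonic globin gene *Hbb-y* at 17 and 8 reads. Of 6 upper-layer neuron markers 5 were higher in SVZ, with sums of 1531 and 774 CPM. *Pou3f2* gave 1027 and 345 CPM of these and *Unc5d* 288 and 6.49, while *Rorb*, higher in cortex, gave 37.2 and 326. Whether these reads came from upper-layer neurons was not tested. Of the glial markers, *Aldh1l1*, *Gfap* and *Aqp4* of the astrocyte lineage had 2718, 105 and 192 reads in SVZ and none in cortex, while the oligodendrocyte lineage genes *Pdgfra*, *Olig1*, *Olig2* and *Sox10* had between 0.447 and 6.44 CPM in either library. The part of these cell types in the values below was not tested.

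Promoter sequences are shown for genes at the extremes of the comparison, *Zbtb20* and *Prdm16* on the SVZ side and *Zeb2* and *Prdm8* on the cortex side. Each runs from 250 bases before to 50 bases after a start site of RefSeq on GRCm38.p6 and reads 5′ to 3′ on the strand of the gene. Not every window lies at the annotated 5′ end. The *Zbtb20* window begins at 43247034 in a gene that starts at 42875881. The *Prdm8* window begins at 98180619 in a gene that starts at 98167198. Capitals mark the NFI half-site TTGGC and the ZEB E-box CAGGTG on either strand.
*Zbtb20*, chr16:43247034-43247333, plus strand: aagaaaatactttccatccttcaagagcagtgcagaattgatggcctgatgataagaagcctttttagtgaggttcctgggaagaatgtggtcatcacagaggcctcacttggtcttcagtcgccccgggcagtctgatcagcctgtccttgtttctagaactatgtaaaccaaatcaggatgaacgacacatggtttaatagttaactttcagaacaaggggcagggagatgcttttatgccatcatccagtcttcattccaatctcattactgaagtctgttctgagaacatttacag
*Prdm16*, chr4:154636824-154637123, minus strand: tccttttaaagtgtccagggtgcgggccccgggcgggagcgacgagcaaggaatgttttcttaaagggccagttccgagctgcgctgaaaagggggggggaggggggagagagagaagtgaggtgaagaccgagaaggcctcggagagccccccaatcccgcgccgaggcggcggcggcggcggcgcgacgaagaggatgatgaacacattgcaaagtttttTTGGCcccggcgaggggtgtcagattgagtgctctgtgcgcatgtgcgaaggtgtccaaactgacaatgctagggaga
*Zeb2*, chr2:45117393-45117692, minus strand: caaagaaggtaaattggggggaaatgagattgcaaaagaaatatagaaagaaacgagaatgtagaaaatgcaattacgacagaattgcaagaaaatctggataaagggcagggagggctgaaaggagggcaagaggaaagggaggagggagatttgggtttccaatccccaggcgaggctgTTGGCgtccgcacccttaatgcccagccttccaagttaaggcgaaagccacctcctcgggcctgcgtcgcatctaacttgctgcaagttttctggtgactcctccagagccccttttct
*Prdm8*, chr5:98180619-98180918, plus strand: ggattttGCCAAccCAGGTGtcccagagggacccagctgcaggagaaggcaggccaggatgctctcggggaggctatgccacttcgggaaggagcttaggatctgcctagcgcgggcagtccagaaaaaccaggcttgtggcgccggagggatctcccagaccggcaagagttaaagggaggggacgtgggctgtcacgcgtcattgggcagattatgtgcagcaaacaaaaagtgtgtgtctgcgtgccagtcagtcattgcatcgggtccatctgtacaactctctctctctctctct
RefSeq windows were matched for 7 of the 9 genes, 13 windows in all, of which *Zeb2* and *Nfix* had 4 each. *Nfib* and *Zeb1* had none in the table. TTGGC was found in 9 of the 13 windows, from *Nfix*, *Zeb2*, *Prdm16* and *Prdm8*, and in 46.7% of all 32851 windows. A pair of the *Zeb2* windows overlap and hold the same half-site, which is counted in both. CAGGTG was found in 2 of the 13, from *Nfix* and *Prdm8*, and in 20.2% of all windows. The full NFI palindrome, TTGGC and GCCAA with 5 bases between them, so that each end is itself a half-site, was in none of the 13 and in 0.0365% of all windows. The half-site thus occurred in genes of either side, in *Prdm16* at position -28 from the start site and in *Prdm8* at -243, where the E-box followed at -236. The single windows of *Zbtb20*, *Nfia* and *Nfic* held neither motif, and none of them lies at the 5′ end annotated in GENCODE. For *Zbtb20* this describes a start site within the gene. The *Nfia* window ends at 97581992, before the GENCODE start at 97772734 but after the RefSeq start at 97578066. That of *Nfic* lies within the gene, ending at 81427423 where the gene ends at 81455635. The *Nfix* windows also lie within their gene, the nearest ending at 84780332 and the gene at 84800344. Base composition overlapped between the sides. On the SVZ side *Prdm16* and *Nfic* had 61.0% and 63.0% G and C with 24 CpG each, and *Zbtb20* had 43.3% with 3 CpG. On the cortex side *Nfia* had 44.7% and *Prdm8* 57.7%, the *Nfix* windows 44.3% to 57.3% and the *Zeb2* windows 49.3% to 60.7%. The median over all windows was 52.7% with 7 CpG. These matches describe the letters of the windows and not binding.

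The question of the comparison was which of the factors separate the germinal zone from the cortex. All 9 genes had a mean of at least 10 CPM. *Zbtb20*, *Zeb1*, *Prdm16* and *Nfic* were higher in SVZ by more than 4-fold, and *Zeb2* was higher in cortex by just under 4-fold. *Nfia*, *Nfib*, *Nfix* and *Prdm8* were within 2-fold, each on the cortex side. The 4 genes on the SVZ side had under 10 CPM in cortex, so that they met the minimum through the SVZ library. Among all 9027 genes 14.9% were at least 2-fold higher in SVZ, beside 4 of the 9, and 12.3% at least 2-fold higher in cortex, beside 1 of the 9. At 4-fold the shares of all genes were 6.75% and 4.70%, and the numbers among the 9 were 4 and 0. All 9 counting intervals lay clear of 0, 4 on the SVZ side and 5 on the cortex side. At this depth that held for most genes, since 49.8% of all genes had an interval on the SVZ side and 39.5% on the cortex side. The median ratio of the 9 was -0.47, below that of all genes, and the extremes lay 6.48 log2 units apart.

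**Figure D1:**
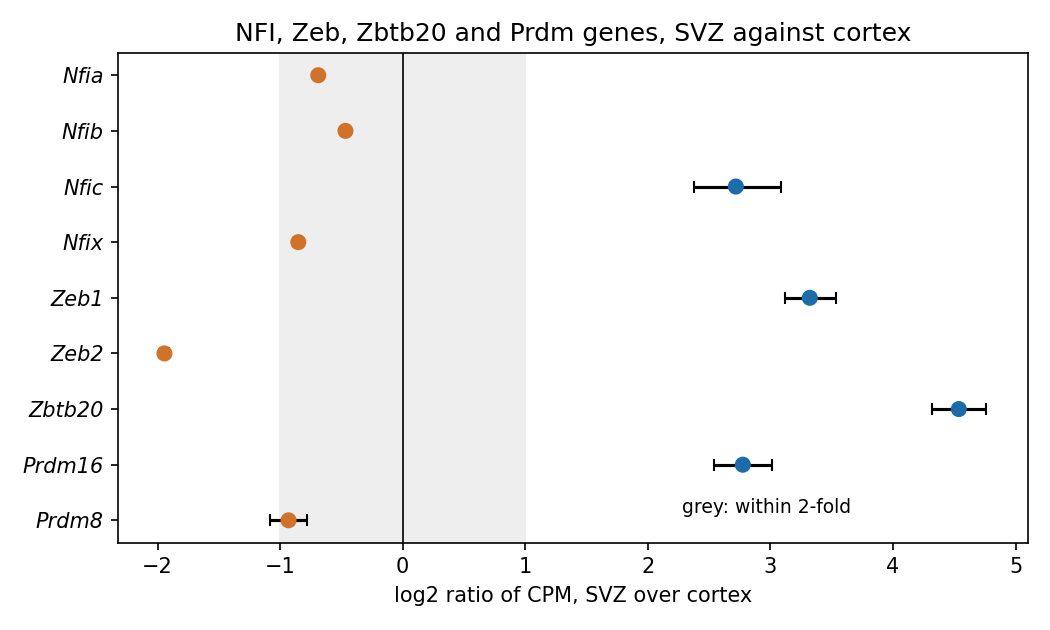
Log2 ratio of CPM, SVZ over cortex, for each of the 9 genes, with exact 95% counting intervals as bars (1 library per area, intervals of the most counted genes are narrower than the point). Blue points are higher in SVZ and orange points in cortex. Of the 9 genes, 4 lie between 2.72 and 4.54, 4 lie in the grey band of differences within 2-fold, and *Zeb2* lies at -1.94.

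The NFI genes *Nfib*, *Nfia* and *Nfix* had the most reads of the 9 genes in both libraries. *Nfib* (chromosome 4, 82290173 to 82705750, minus strand) is the family member best known for its need in the formation of axon tracts and the lung. It had 180269 reads in SVZ and 106840 in cortex, or 3505 and 4845 CPM, a ratio of -0.47 (interval -0.48 to -0.46). Its mean level was above that of 99.9% of the genes tested. *Nfia* (chromosome 4, 97772734 to 98118874, plus strand), known for its role at the switch from neuron to glia formation, had 28078 and 19405 reads. These were 546 and 880 CPM, a ratio of -0.69 (-0.72 to -0.66). *Nfix* (chromosome 8, 84699876 to 84800344, minus strand), known for limiting the progenitor state in the forebrain, had 24774 and 19169 reads. These were 482 and 869 CPM, a ratio of -0.85 (-0.88 to -0.82). The trio was therefore abundant in both areas and between 1.38-fold and 1.80-fold higher in cortex.

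*Nfic*, the family member best known from tooth root formation, went the other way. *Nfic* (chromosome 10, 81396186 to 81455635, minus strand) had 1105 reads in SVZ and 72 in cortex, or 21.5 and 3.27 CPM. Its ratio of 2.72 (2.37 to 3.08) is a fold of 6.58, and 95.1% of the genes tested had a lower ratio. The paralogs were compared with each other directly, since the scaling of the libraries cancels between genes of the same pair of libraries. The ratio of *Nfic* exceeded that of *Nfix* by 3.57 (exact conditional 95% interval 3.22 to 3.94). *Nfia* and *Nfic* differed by -3.41 (-3.77 to -3.06), and *Nfib* and *Nfic* by -3.19 (-3.55 to -2.84). Among the abundant paralogs the differences were small but beyond the counting error of reads taken as independent. They were 0.38 (0.36 to 0.41) for *Nfib* less *Nfix*, 0.16 (0.12 to 0.20) for *Nfia* less *Nfix* and -0.22 (-0.25 to -0.19) for *Nfia* less *Nfib*.

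Levels of different genes were compared per length, as CPM per kilobase of annotated exon (RPKM). The 4 NFI genes summed to 353 RPKM in SVZ and 523 in cortex. *Nfib* held 66.3% of this NFI level in SVZ and 61.9% in cortex. *Nfix* held 18.6% and 22.6%, and *Nfia* 14.2% and 15.4%. *Nfic* held 0.917% and 0.0941%, a minor part in both areas. The order *Nfib*, *Nfix*, *Nfia*, *Nfic* was thus the same in both libraries.

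**Figure D2:**
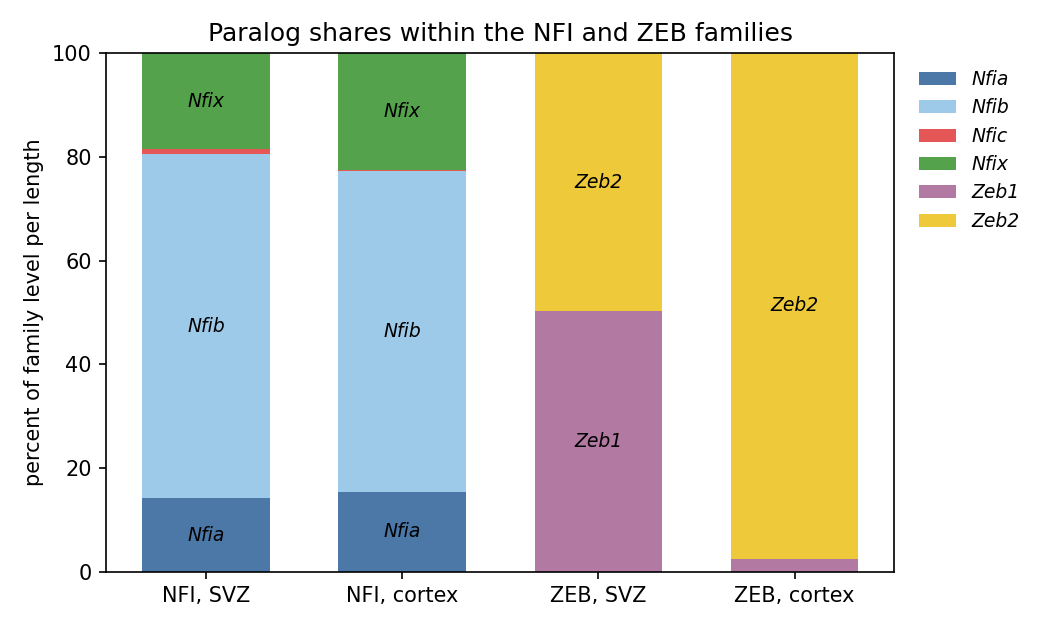
Percent of the summed level per length (RPKM) that each paralog holds within the NFI genes and within the ZEB genes, in the SVZ and in cortex (1 library per bar). The NFI bars are alike, with *Nfib* at 66.3% and 61.9%, while *Zeb1* holds 50.2% of the ZEB level in SVZ and 2.56% in cortex.

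The ZEB genes were split between the areas. *Zeb1* (chromosome 18, 5591860 to 5775467, plus strand) had 4640 reads in SVZ and 199 in cortex, or 90.2 and 9.02 CPM, a ratio of 3.32 (3.12 to 3.53). *Zeb2* (chromosome 2, 44983632 to 45117395, minus strand) had 8935 and 14738 reads, or 174 and 668 CPM, a ratio of -1.94 (-1.98 to -1.91). *Zeb1* was thus 10.0-fold higher in SVZ and *Zeb2* 3.85-fold higher in cortex. The difference between the paralogs was 5.27 (5.06 to 5.48), or 38.5-fold, whatever the scaling. In the SVZ library they had nearly the same level per length, 8.79 RPKM for *Zeb1* and 8.71 for *Zeb2*. In the cortex library *Zeb2* stood at 33.5 RPKM and *Zeb1* at 0.879, a *Zeb2* level 38.1 times that of *Zeb1*. The even share in SVZ depends on the length used, since with the longest annotated transcript *Zeb1* held 45.0% of the ZEB level there, while its share in cortex was 2.08%. Both genes are also known from cells of vessels and, for *Zeb2*, from microglia, whose markers are given above.

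*Zeb2* is accompanied by an antisense gene, *Zeb2os* (chromosome 2, 45110707 to 45114087), whose exons share 653 bases with those of *Zeb2*. *Zeb2os* had 106 reads in SVZ and 128 in cortex, 2.06 and 5.80 CPM, a ratio of -1.49 (-1.88 to -1.11). Both genes of the locus therefore had more CPM in cortex. The libraries kept no strand, with 49.6% of the SVZ and 49.7% of the cortex stranded counts on the first strand. Reads of *Zeb2* and *Zeb2os* thus cannot be told apart in the shared bases, where the counting used assigns a read to neither. *Zeb2os* also lies wholly within the span of *Zeb2*, so unspliced reads of *Zeb2* can be counted as *Zeb2os* in its other exonic bases. How many of the *Zeb2os* reads came from *Zeb2os* itself was not tested.

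*Zbtb20* showed the largest ratio of the 9. *Zbtb20* (chromosome 16, 42875881 to 43642602, plus strand) had 9530 reads in SVZ and 176 in cortex, or 185 and 7.98 CPM. The ratio of 4.54 (4.32 to 4.76) is a fold of 23.2, and 97.9% of the genes tested had a lower ratio. It lay above the median of the apical progenitor markers and beside that of the intermediate progenitor markers. The level of *Zbtb20* per length is uncertain, because its annotated end in RefSeq is 8210 bases short of that in GENCODE and all of these bases are exonic in GENCODE.

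The PRDM genes stood on opposite sides. *Prdm16* (chromosome 4, 154316125 to 154636873, minus strand) had 2538 reads in SVZ and 159 in cortex, or 49.3 and 7.21 CPM, a ratio of 2.77 (2.54 to 3.02). *Prdm8* (chromosome 5, 98167198 to 98188991, plus strand) had 812 and 664 reads, or 15.8 and 30.1 CPM, a ratio of -0.93 (-1.08 to -0.78). *Prdm16* was thus 6.84-fold higher in SVZ, and *Prdm8* was 1.91-fold higher in cortex, with an interval (1.72-fold to 2.12-fold) that includes 2-fold. The difference between them was 3.71 (3.43 to 3.99). Per length, *Prdm16* had 1.63 times the level of *Prdm8* in SVZ, and *Prdm8* had 8.02 times the level of *Prdm16* in cortex. For *Prdm8* an antisense gene that is not listed in the counts, *A730035I17Rik*, shares 1411 exonic bases with it in GENCODE, and its reads there cannot be told apart from those of *Prdm8*.

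The order of the 9 genes by level changed between the areas. In the SVZ library it was *Nfib* (234 RPKM), *Nfix* (65.5), *Nfia* (50.1), *Zeb1* (8.79), *Zeb2* (8.71), *Zbtb20* (6.03), *Prdm16* (5.29), *Prdm8* (3.25) and *Nfic* (3.24). The neighbours *Zeb1* and *Zeb2*, and *Prdm8* and *Nfic*, did not differ beyond counting error. In the cortex library the order was *Nfib* (324), *Nfix* (118), *Nfia* (80.8), *Zeb2* (33.5), *Prdm8* (6.20), *Zeb1* (0.879), *Prdm16* (0.774), *Nfic* (0.492) and *Zbtb20* (0.260). There the neighbours *Zeb1* and *Prdm16* did not differ beyond counting error. *Zbtb20* moved from the sixth to the last place, and *Prdm8* from the eighth to the fifth, while the leading trio of NFI genes kept its places.

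**Figure D3:**
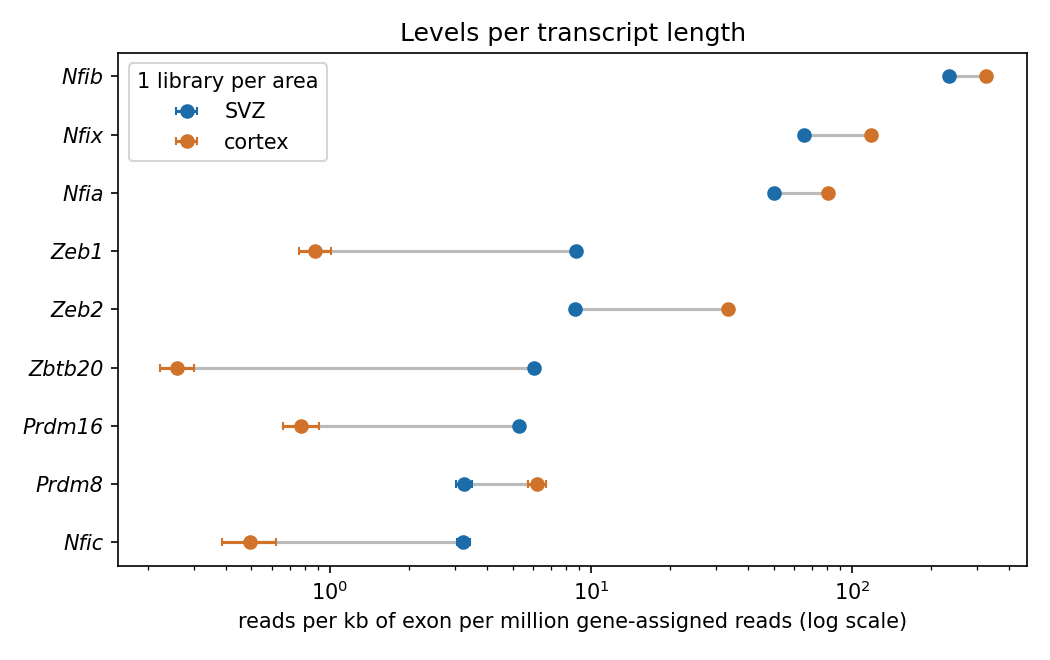
Level per length of the 9 genes (RPKM, log scale) in SVZ (blue) and the cortex library (orange), with exact Poisson 95% counting intervals, sorted by the SVZ level. *Nfib*, *Nfix* and *Nfia* lie above 50 RPKM in both libraries, and the widest gap is that of *Zbtb20*, at 6.03 and 0.260.

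Other genes of the PRDM and ZBTB families were measured for comparison. Of 14 PRDM genes 5 had a mean of at least 10 CPM. *Prdm16* alone of these was at least 2-fold apart, beside 14.9% of all genes on the SVZ side and 12.3% on the cortex side, and *Prdm2*, *Prdm4*, *Prdm8* and *Prdm15* were on the cortex side within 2-fold, with ratios of -0.52, -0.88, -0.93 and -0.38. The median over the 5 was -0.52. Below the minimum, *Prdm9* had 284 and 49 reads (1.31), and *Prdm10* 93 and 109 (-1.45). *Mecom*, the closest relative of *Prdm16*, had 72 and 42 reads, a ratio of -0.44 (-1.01 to 0.14), so that a difference was not detectable at this depth. The same held for *Prdm1* (25 and 5 reads) and *Prdm11* (16 and 6). *Prdm6* had 0 and 15 reads and *Prdm12* 44 and 0, while *Prdm13* and *Prdm14* were at 0 in both libraries, where a count of 0 allows up to 0.0583 CPM in SVZ and 0.136 in cortex. Taking a count of 0 as 3 reads, *Prdm12* was 6.29-fold higher in SVZ and *Prdm6* 11.7-fold higher in cortex. On the log2 scale the interval of *Prdm12* began at 2.29 and that of *Prdm6* ended at -3.06.

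Of the 40 ZBTB genes 23 had a mean of at least 10 CPM. *Zbtb20* and *Zbtb1* were at least 2-fold higher in SVZ, none was at least 2-fold higher in cortex and 21 were within 2-fold, where 14.9% and 12.3% of all genes were past 2-fold on the SVZ and the cortex side. The median ratio was -0.13. *Zbtb1* had 769 reads in SVZ and 144 in cortex and a ratio of 1.19 (0.94 to 1.46), well short of that of *Zbtb20*. Both had under 10 CPM in cortex and met the minimum through the SVZ library. *Zbtb18*, a repressor known from cortical neuron maturation and the most counted of the family in both libraries, had 15758 and 11420 reads and a ratio of -0.76 (-0.79 to -0.72).

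**Figure D4:**
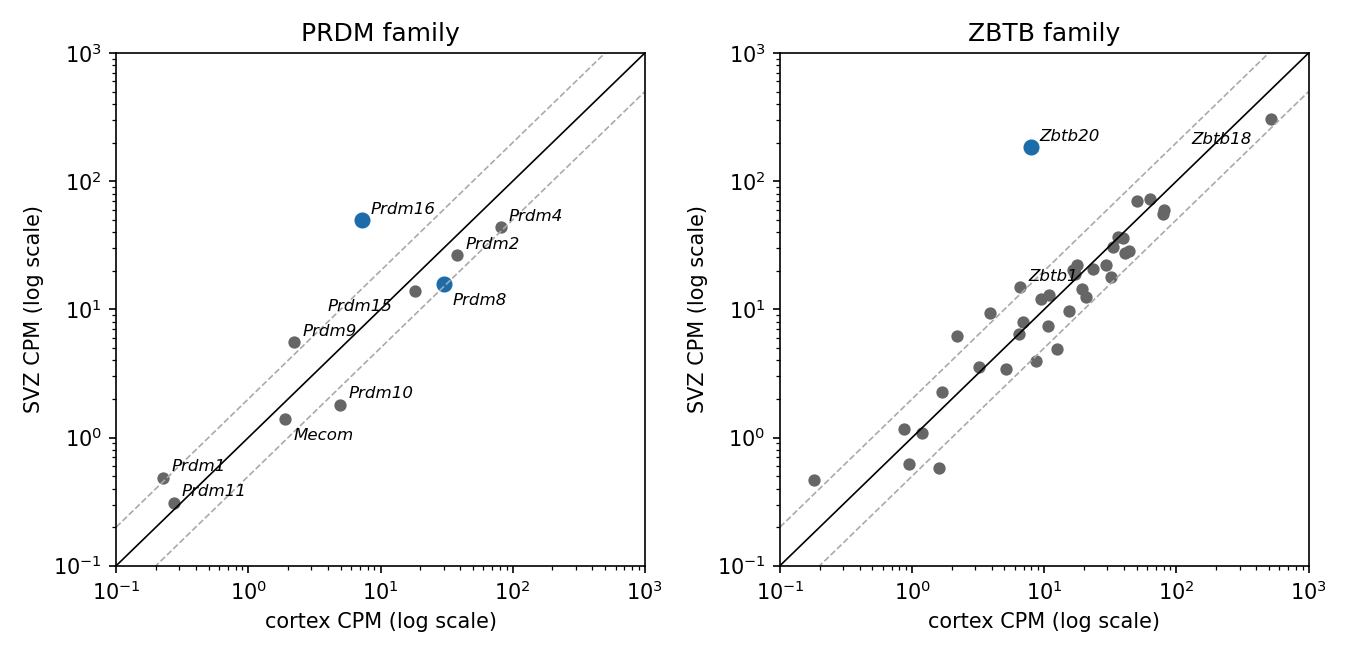
SVZ CPM against cortex CPM, both on log scales, for the genes of the PRDM family (left) and the ZBTB family (right) with at least 1 read in each library. The solid line marks equal CPM, the dashed lines mark 2-fold, and blue points are *Prdm16*, *Prdm8* and *Zbtb20*. *Zbtb20* (185 and 7.98 CPM) and *Prdm16* (49.3 and 7.21 CPM) lie far above the upper dashed line, and most other genes lie near equality.

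Genes that are known as targets or partners of the factors were then described. Among 9 genes linked to NFI factors 7 had a mean of at least 10 CPM. Of these, 5 were at least 2-fold higher in SVZ and 1 in cortex, beside 14.9% and 12.3% of all genes, and the median ratio was 2.79, beside 0.10 over all genes. The list was not divided into genes that NFI factors raise and genes that they lower. Its count and median therefore describe where the listed genes lie and not NFI action. *Hes1* and *Zcchc24* among the 5 had 8.75 and 2.54 CPM in cortex, so that they met the minimum through the SVZ library. *Sox9*, a progenitor and glial factor, had 19086 and 560 reads and a ratio of 3.87 (3.75 to 3.99). *Hes1*, a Notch effector of progenitors, had a ratio of 3.65 (3.45 to 3.87), *Zcchc24* 2.89 (2.50 to 3.30), *Bbx* 2.79 (2.69 to 2.89) and *Mmd2* 1.12 (1.04 to 1.21). *Ezh2*, the catalytic subunit of the Polycomb complex that places H3K27 methylation, had 476 and 238 CPM and lay just within 2-fold. *Apcdd1*, a Wnt inhibitor, was higher in cortex, with a ratio of -1.50 (-1.68 to -1.33). Below the minimum, *Gfap*, the astrocyte filament gene, had no read in cortex. With that count taken as 3 reads it was 15.0-fold higher in SVZ, and its interval began at 3.58 on the log2 scale. *Insc*, a gene for spindle orientation, had 81 reads in SVZ and none in cortex. *Sox9* and *Hes1* are also known progenitor genes, and *Hes1* is in the list of apical progenitor markers.

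Among 13 genes linked to ZEB repression only 2 had a mean of at least 10 CPM, and no median is given. The epithelial genes were at or near 0 in both libraries. *Cdh1*, which encodes E-cadherin, and *Ovol2* had no read in either library. *Epcam*, *Crb3*, *Llgl2*, *Esrp1*, *Esrp2*, *Grhl2* and *Ovol1* had at most 31 reads in SVZ and at most 15 in cortex. *Pard6b*, a polarity gene, had 8.92 and 8.98 CPM, and no difference was detectable at this depth, the interval being -0.25 to 0.24. The secreted factors linked to *Zeb2* in the cortex differed in direction. *Ntf3*, the gene for neurotrophin 3, had 0 reads in SVZ and 793 in cortex, and met the minimum through the cortex library. With the 0 taken as 3 reads *Ntf3* was 617-fold higher in cortex, and its counting interval ended at -8.97 on the log2 scale. *Fgf9*, a growth factor gene, had 56 and 104 reads and a ratio of -2.12 (-2.61 to -1.63). *Sfrp1*, a secreted Wnt antagonist gene, had 19531 and 1703 reads and a ratio of 2.30 (2.23 to 2.37).

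Of 10 cortical neuron genes linked to repression by ZBTB20, 9 had a mean of at least 10 CPM, of which 8 were at least 2-fold higher in cortex and none in SVZ, beside 12.3% and 14.9% of all genes. Their median ratio was -2.21, beside -2.18 for the deep-layer neuron markers, with which the list shares genes. *Mef2c*, a factor of neuronal maturation, had 3742 and 53686 reads and a ratio of -5.06 (-5.11 to -5.02). The ratio was -3.27 (-3.46 to -3.09) for *Zfpm2*, -3.13 (-3.20 to -3.06) for *Rorb*, -3.03 (-3.12 to -2.95) for *Tle4*, -2.21 (-2.28 to -2.14) for *Tbr1* and -2.15 (-2.18 to -2.12) for *Sox5*. *Zfpm2* had 5.68 CPM in SVZ and met the minimum through the cortex library. *Cux1*, a factor of upper-layer neurons also made by progenitors, was on the SVZ side at 0.87 (0.80 to 0.94), as was its paralog *Cux2*, below the minimum, with 451 and 127 reads and a ratio of 0.61 (0.32 to 0.90). *Tbr1*, *Sox5*, *Tle4*, *Fezf2* and *Foxp2* of this list are also deep-layer markers, which were higher in cortex as a list. *Rorb*, *Cux1* and *Cux2* are also upper-layer markers, and of that list 5 of 6 were higher in SVZ, *Rorb* being the exception.

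Of the genes linked to PRDM factors, *Bhlhe22*, the partner of *Prdm8*, had 2129 reads in SVZ and 3681 in cortex, a ratio of -2.01 (-2.09 to -1.93). *Cdh11*, a cadherin gene described as repressed by the pair, also was higher in cortex, with 1715 and 1811 reads and a ratio of -1.30 (-1.40 to -1.20). *Pdzrn3*, described as repressed by PRDM16, was on the same side as *Prdm16*, with 4484 and 277 reads and a ratio of 2.79 (2.62 to 2.98). The ratio of *Prdm8* lay closer to 0 than that of its partner.

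**Figure D5:**
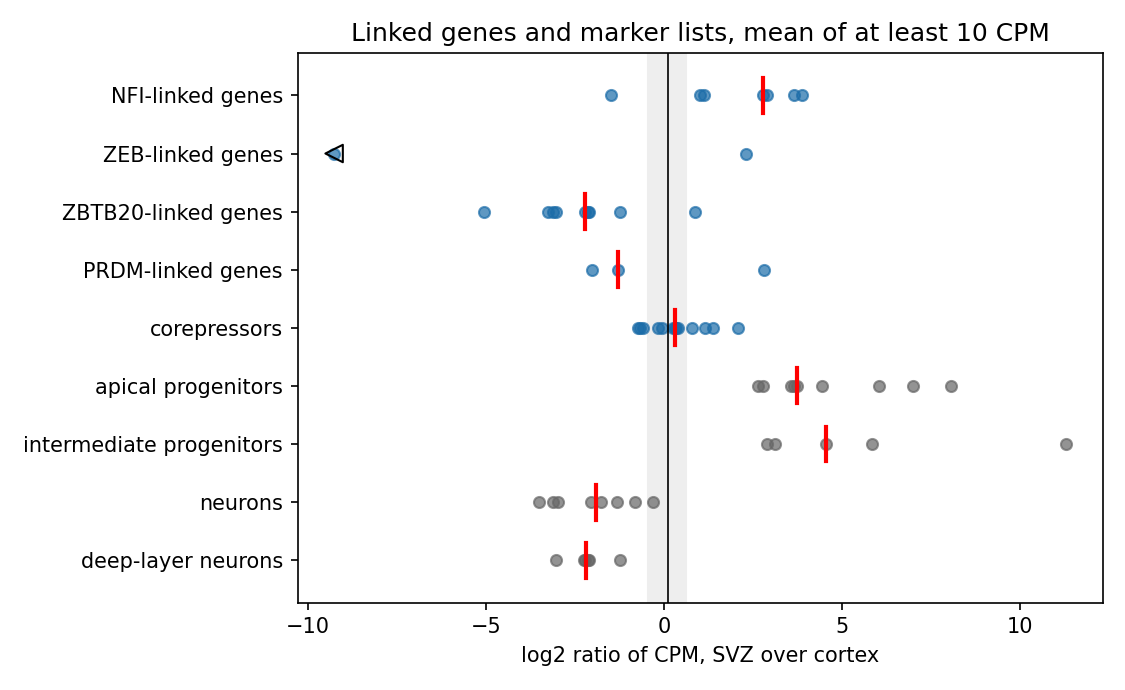
Log2 ratio of CPM, SVZ over cortex, of each gene with a mean of at least 10 CPM in the lists of genes linked to the factors (blue) and in marker lists (grey), with list medians in red for lists of 3 or more genes. The grey band and black line are the interquartile range and the median (0.10) of all 9027 genes. The triangle is *Ntf3*, placed with its 0 reads in SVZ taken as 3. NFI-linked genes lie mostly on the SVZ side and ZBTB20-linked genes on the cortex side, as do apical progenitor and deep-layer markers in turn.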

How the data were processed

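LCM and bulk RNA-seq libraries of the SVZ and the cortex, 1 each, were used. Per the study's methods and the submitters' processing notes, the authors trimmed adapters with cutadapt 4.1, mapped read 1 to mm10 (iGenomes) with STAR 2.7.9a and deposited raw counts per gene, with 1 column without regard to strand, used here, and 1 for each strand. The authors' merged table, which repeats counts and adds CPM, a fold change and its log10, was not used. STAR leaves out reads that map to several places or overlap more than 1 gene. No source used here gives molecular identifiers.

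CPM was computed on gene-assigned reads, the 4 STAR summary lines left out. Ratios took no pseudocount, and a count of 0 was set at 3 reads. No test was possible with 1 library per area. Exon lengths and positions came from GENCODE M21 (GRCm38), matched by symbol for all 9 genes. Named are the 9 genes, the measured PRDM genes, the linked and ZBTB genes past 2-fold (at most 6 per direction), markers with the most or no reads, and overlapping genes. Further genes named for context were chosen after their values were seen. The 9 genes and all lists were chosen with earlier results of these data known. A further gene of these lists is not reported here. Ratios were also computed with size factors of DESeq2 1.42.0, with the TMM and upper-quartile factors of edgeR 4.0.16, on totals leaving out the 10 genes with most reads, on stranded sums, after thinning, with a pseudocount of 1 CPM, and with other minimums and other lengths. R 4.3.3, Python 3.11.15 and scipy 1.17.1 were used, and the procedures were tested on simulated data.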

Additional observations from a re-analysis of the deposited data

Results flagged for a closer look

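The columns that count each strand apart, which the comparisons above did not use, held further reads for some of the genes, beyond the 3 that a count of 0 allows. In their sum *Zeb2* gained 174 reads in SVZ and 547 in cortex, or 1.95% and 3.71% of its count, and *Zeb2os* gained 178 and 551. *Nfix* gained 16 and 14 reads, and *Lyl1*, which shares 4 exonic bases with it on the opposite strand, gained 15 and 14. *Nfia* gained 8 and 1. *Zeb1*, *Zbtb20*, *Nfic*, *Prdm16* and *Prdm8* gained none in either library, and *Nfib* gained 0 and 1.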

How the results depend on the processing

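No paired analysis was possible because there was 1 library per area, and none could be left out. None of the 9 genes changed side under the 7 alternatives run for its ratio. *Zeb2* ranged from -2.04 to -1.94, *Zbtb20* from 4.37 to 4.54 and *Nfic* from 2.40 to 2.72, the last with its lowest value under a pseudocount. The scaling moved *Nfia*, *Nfib*, *Nfix* and *Zeb2* past their counting intervals, which do not cover this choice. With TMM factors *Nfib* lay at -0.56, *Nfia* at -0.78, *Nfix* at -0.94 and *Zeb2* at -2.04. Under TMM, DESeq2 and upper-quartile scaling, which move ratios by at most -0.099, 2 of the 9 genes were at least 2-fold higher in cortex, since *Prdm8* joined *Zeb2*, and 1 was at least 4-fold higher there, *Zeb2*. With the longest transcript, *Nfib* held 72.1% of the NFI level in SVZ and 67.9% in cortex, and *Zeb1* 45.0% and 2.08% of the ZEB level. Without division by length these shares were 77.0%, 73.4%, 34.2% and 1.33%. With a minimum of 1 CPM, 2 PRDM genes were at least 2-fold higher in SVZ and 1 in cortex, as were 4 and 3 ZBTB genes, and 2 ZEB-linked genes were at least 2-fold higher in cortex. TMM scaling also put 1 PRDM gene, *Prdm8*, past 2-fold on the cortex side. Other minimums test other numbers of genes. The number of reads in cortex limits the ratios of *Nfic*, *Prdm16*, *Zbtb20* and *Zeb1* most.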

Other observations

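Among 13 genes for corepressors and SMAD proteins that bind ZEB or PRDM16 proteins, all with a mean of at least 10 CPM, 3 were at least 2-fold higher in SVZ, none in cortex and 10 were within 2-fold, with a median ratio of 0.31. Among all genes 14.9% and 12.3% were past 2-fold on the SVZ and the cortex side, with a median of 0.10. *Hdac1*, a histone deacetylase gene, had 5272 and 538 reads and a ratio of 2.07 (1.94 to 2.20), whereas its paralog *Hdac2* had a ratio of -0.18 (-0.21 to -0.15). The CtBP corepressor genes were divided in a like way, with *Ctbp2* at 1.14 (1.06 to 1.23) and *Ctbp1* at -0.68 (-0.72 to -0.63). *Mta3*, a subunit gene of the NuRD complex, had a ratio of 1.36 (1.14 to 1.59). With 8.53 CPM in cortex it met the minimum through the SVZ library.

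Genes annotated as overlapping the 9 genes did not always share their side. *E130114P18Rik*, which overlaps the start of *Nfia* on the opposite strand with 4 shared exonic bases (chromosome 4, 97568133 to 97778078), had 6840 reads in SVZ and 296 in cortex, a ratio of 3.31 (3.14 to 3.48), beside -0.69 for *Nfia*. *Gm10125*, opposite to *Zeb1*, had 35 and 0 reads. At *Zbtb20*, *Gm19522*, *Gm15713* and *Mir568* had 44, 27 and 62 reads in SVZ and none in cortex, the side of *Zbtb20* itself, and the pseudogene *BC002163* had 146 and 38. *Mir568* lies beyond the end of *Zbtb20* in RefSeq and within an exon of *Zbtb20* in GENCODE, and reads of *Zbtb20* there cannot be told apart from reads of *Mir568*. *Lyl1* had 53 and 1 reads, *Mir5129* within *Zeb2* had 0 and 9, and *Mir1191b* within *Nfic* had none. Since the libraries kept no strand, unspliced reads of a gene that spans another can be counted under the other. No explanation was tested for these values.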
